A study of Mus musculus with 74 samples.

Results

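The genes examined were 10 subunits of the BAF chromatin remodeller, a listed set that was matched by gene symbol in the deposited RNA-seq table and makes up 10 of its 37620 rows. They were Smarca4, Smarca2, Arid1a, Arid1b, Smarcc1, Smarcc2, Smarcd1, Smarcb1, Smarce1 and Actl6a; each had 1 row and each passed the filter on low counts in every comparison below. Smarca4 encodes Brg1, which the study also profiled by ChIP (not analysed here). The series asks how Nanog, a transcription factor of pluripotent cells, supports the self-renewal of mouse embryonic stem (ES) cells with and without the cytokine LIF. The RNA-seq libraries analysed here numbered 35 in 12 groups, all from E14Tg2a ES cells or lines made from them.

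In SunTag cells, doxycycline (Dox, 1 µg/mL) switches on a catalytically dead Cas9 that recruits the VP64 activator to the promoter named by the guide RNA, and 1 clone from each of the parental clones C1 and C2 was used for each line. All these cells carry the SunTag and rtTA transgenes, also without Dox. Nanog SunTag cells were sampled with LIF (10 ng/mL) and no Dox (+LIF -Dox, n = 3), with both (+LIF +Dox, n = 2), without either (-LIF -Dox, n = 3) and with Dox alone (-LIF +Dox, n = 3). Nanog/Otx2 SunTag cells carry guides to both promoters, so that Dox raises Otx2 as well as Nanog, and were sampled in the same conditions (n = 3, 4, 4 and 4). 44iN cells have no endogenous Nanog and express it from a Dox-dependent transgene, so that their +Dox group (n = 2) has Nanog and the group 24 h after Dox removal (44iN -Dox 24h, n = 2) has lost it; a long-term line without Dox (44iN -Dox LT, n = 2) was kept by selection. Tg2a FCS (n = 3) is the unmodified line in serum and LIF. Nanog and Nanog/Otx2 libraries carry different library-name prefixes, so that the guides and the set of libraries cannot be told apart. Where the labels do not say that libraries came from separate cultures, a p-value measures only the spread between these libraries.

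BAF complexes, the mammalian SWI/SNF family, use ATP to slide or evict nucleosomes and so open enhancers and promoters to transcription factors. A canonical BAF complex holds 1 ATPase (Brg1 or Brm, the product of Smarca2) and a scaffold of Smarcc, Smarcd, Smarcb1 and Smarce1 proteins. It also holds an ARID1 protein, which marks this form, and actin-related proteins such as Actl6a. ES cells are known for a form of BAF built on Brg1, Arid1a and Smarcc1, with little Brm and Smarcc2, and paralogous subunits replace each other as cells differentiate.

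The labels were checked first. The mean normalised read count of Nanog rose from 5916 to 51805 with Dox in Nanog SunTag cells without LIF and from 4425 to 39529.6 in Nanog/Otx2 SunTag cells (edgeR adjusted p = 0.000899 and 1.7e-05). Otx2 went from 4074 to 7173 with Dox in Nanog/Otx2 SunTag cells without LIF and from 4238 to 2450.3 in Nanog SunTag cells. The Nanog count was 15880.4 in 44iN +Dox and 722 after 24 h without Dox. Of the naive pluripotency markers Zfp42, Esrrb, Klf4, Tfcp2l1 and Tbx3, 5 of 5 fell on LIF withdrawal without Dox under both guides. In Nanog SunTag cells without Dox their summed count was 55779 to 63715 with LIF and 1878 to 3027 without, and that of the 4 primed epiblast markers Fgf5, Otx2, Dnmt3b and Pou3f1 was 3647 to 7176 with LIF and 71205 to 84585 without. All 4 primitive endoderm markers fell on LIF withdrawal in Nanog SunTag cells and none passed the test in Nanog/Otx2 SunTag cells. The summed fibroblast markers ranged from 65.2 to 804 over all 12 groups and those of mesendoderm from 86.1 to 688, against 5709 for Smarca4 alone in Nanog SunTag +LIF -Dox. Neural markers (3 of the 4 listed had a row) summed to more, from 500 to 4614 over all groups. In Nanog SunTag cells without Dox their sum was 1202 to 3197 with LIF and 1798 to 4189 without. Of the 3 tested, 1 was called higher and 1 lower on LIF withdrawal without Dox under both guides. On LIF withdrawal without Dox the median mesendoderm sum went from 179 to 459 in Nanog and from 97.2 to 250.1 in Nanog/Otx2 SunTag cells. There, 2 of 3 and 2 of 2 mesendoderm markers tested, 1 of 3 and 2 of 3 fibroblast markers and, under both guides, the 1 trophoblast marker tested were called higher, and 2 of 3 and 1 of 3 general pluripotency markers were called lower. The mesendoderm list (T, Eomes, Mixl1) and the trophoblast list (Cdx2, Elf5, Eomes) share Eomes, so that their calls and sums are not independent. The part of these marker shifts in the results below was not tested. The sum of estimated counts per library ran from 6107512 to 92244655, with a median of 29298745. In the group Nanog SunTag +LIF -Dox, library C1-1 stood apart from C2-1 and C2-2 for several members. It also differed beyond the members. Its median deviation for transcripts of 5000 bases or more, minus that for those under 2500, was -0.097, against -0.574 and -0.635. Results that rest on C1-1 are also given without it. It is the only C1 library there, so that without it the group holds clone C2 alone. Nanog SunTag -LIF -Dox holds its own C1-1, C1-2 and C2-1. Comparisons with the reduced group thus partly mix clone and condition, and the part of clone was not tested.

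Levels of different genes were compared as normalised counts per kilobase of the longest protein-coding transcript. On this scale Actl6a, an actin-related subunit of the ATPase module, and Smarcc1, a scaffold subunit, led in Tg2a FCS cells with 2531 and 1919. Smarcb1 (1021), Arid1a (1008), Smarce1 (912) and Smarcd1 (764) came next, and the ATPase gene Smarca4 was 7th at 484. Smarcc2, Arid1b and Smarca2 were the lowest 3 in all 12 groups, at 122, 46.7 and 18.4 in Tg2a FCS. Each of these is the lower member of a paralog pair. The Smarca2 share of the ATPase pair, per length, lay between 0.859% and 1.82% over the 8 SunTag group means. It was 4.93% ± 0.557 (SD, n = 2) in long-term 44iN cells and 3.74% ± 0.677 (SD, n = 3) in Tg2a FCS. The Arid1b share of the ARID1 pair was 2.66% to 6.71% over the 12 group means, and the Smarcc2 share of the Smarcc pair was 5.67% to 14.3%.

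The promoters of the ATPase genes are shown because these paralogs are very unequal in level and are the ones between which the ATPase of a complex is chosen. They are the 250 bases before the RefSeq start of each gene, read on the gene's strand in GRCm38.p6; capitals mark the letters GGGCGG (GC box, Sp1/Klf family), TGCGCA (core of the NRF1 site) and CCGGAA (core of the ETS site), found on either strand, and none of these matches overlap.
Smarca4, chr9:21615919-21616168, + strand: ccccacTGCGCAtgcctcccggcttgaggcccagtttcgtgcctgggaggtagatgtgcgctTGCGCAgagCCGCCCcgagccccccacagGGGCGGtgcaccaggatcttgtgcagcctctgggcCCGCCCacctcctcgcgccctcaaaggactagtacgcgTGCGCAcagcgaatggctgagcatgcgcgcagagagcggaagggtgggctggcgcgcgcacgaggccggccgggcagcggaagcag
Smarca2, chr19:26604910-26605159, + strand: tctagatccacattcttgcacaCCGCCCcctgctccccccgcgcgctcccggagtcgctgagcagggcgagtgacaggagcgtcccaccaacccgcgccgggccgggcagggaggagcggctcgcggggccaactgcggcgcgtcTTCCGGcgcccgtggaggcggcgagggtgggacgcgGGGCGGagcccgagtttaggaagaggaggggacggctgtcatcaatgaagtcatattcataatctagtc

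Both windows are rich in CpG, with 25 CpG dinucleotides in Smarca4 and 28 in Smarca2, against a median of 6 (quartiles 2 and 16) over 32851 RefSeq windows. The Smarca4 window held 3 GC box and 3 NRF1 core matches, and the Smarca2 window 2 GC box matches and 1 ETS core match. A GC box match occurred in 32.7% of all windows, the NRF1 core in 6.43% and the ETS core in 12.03%. Of the other members, 7 had an entry (Arid1a with 2 windows), and their CpG count ran from 18 to 40. In the mm9 annotation Smarca4 lies at chr9:21420613-21508674 on the + strand and Smarca2 at chr19:26679650-26852811 on the + strand.

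**Figure D1:**
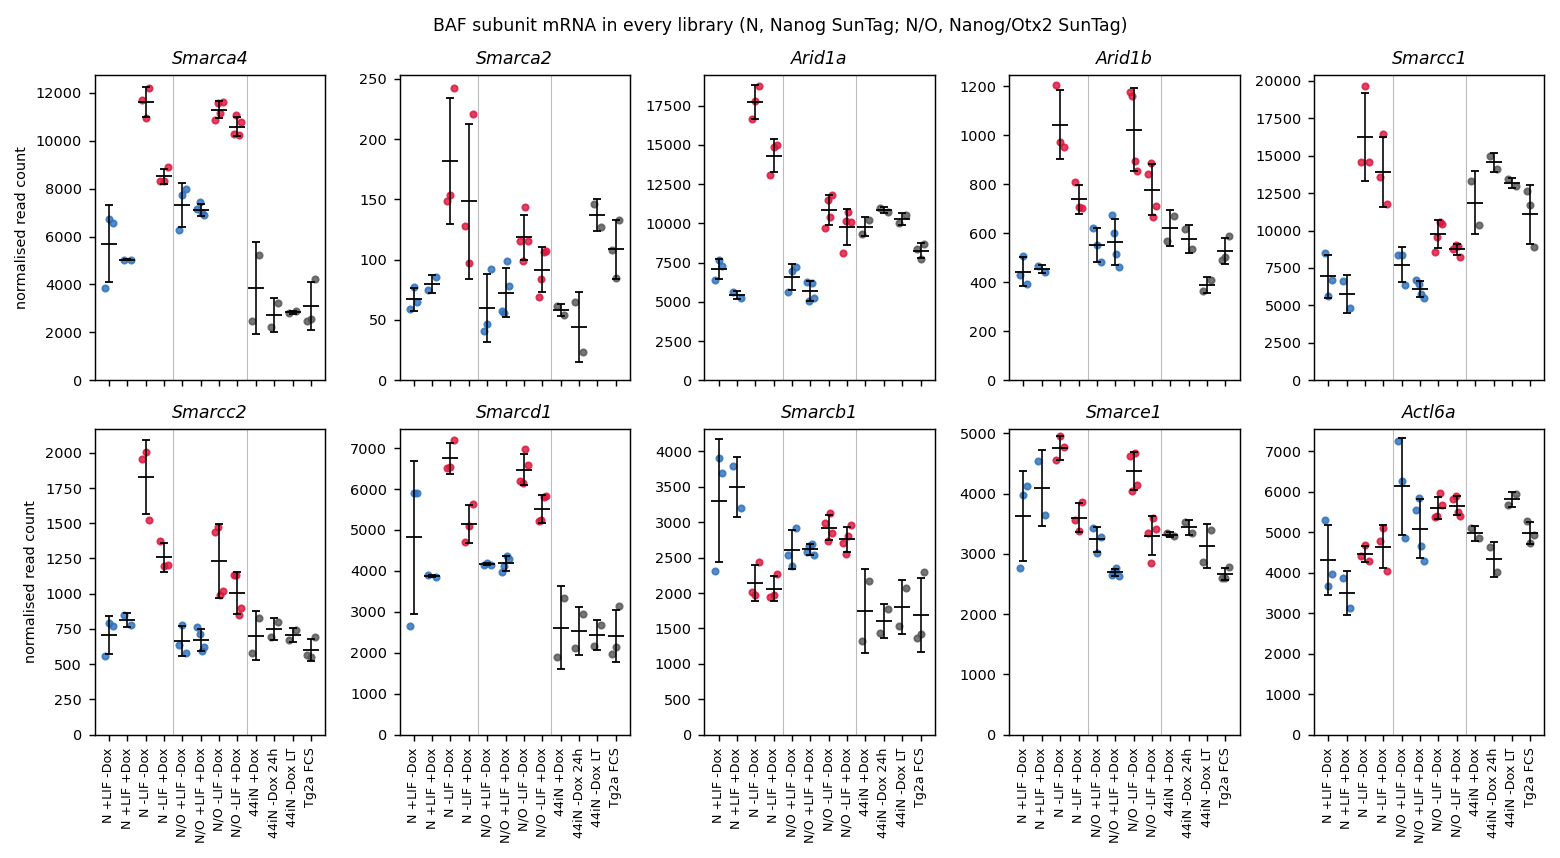
Normalised read counts (linear axes from 0) of the 10 BAF subunits in each of the 35 libraries, 1 panel a gene; coloured points are libraries, black bars the mean ± SD of a group, N is Nanog SunTag and N/O is Nanog/Otx2 SunTag. Smarca4 had its 4 highest group means without LIF in SunTag cells (8514 to 11622), and Smarca2 never exceeded 242.

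Across all libraries Smarca4 ranged from 2208 to 12214 normalised counts, Smarca2 from 23.7 to 242, Smarce1 from 2602 to 4948 and Actl6a from 3119.8 to 7255. Ordered by group mean, Smarca4 was highest in Nanog SunTag -LIF -Dox, then in Nanog/Otx2 SunTag -LIF -Dox, and lowest in 44iN -Dox 24h. Of its 11 gaps between neighbours in that order, 10 were smaller than the sum of the neighbours' SDs and 1 was larger. For Smarca2, Smarcc1, Smarcb1 and Actl6a, 11 of 11 gaps lay within that spread, so that the order of single neighbours is not resolved.

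Withdrawal of LIF without Dox asks how BAF subunit mRNA changes when ES cells leave self-renewal. In Nanog SunTag cells 6 of 10 members rose and 1 fell (edgeR quasi-likelihood test, Benjamini-Hochberg adjusted p under 0.05), where 20.2% of the 15624 genes tested rose and 21.3% fell. Of the 10 members, 8 rose and none fell in Nanog/Otx2 SunTag cells, beside 24.6% and 25.2% of 15609 genes. The median log2 fold change of the members was 1.11 and 0.60, against -0.05 and -0.01 over all genes tested. Smarca4, Smarca2, Arid1a, Arid1b, Smarcc1 and Smarcc2, the 6 members that make up the paralog pairs, rose under both guides. In these bulk samples fewer cells of a type and less RNA per cell cannot be told apart. Where groups are said not to overlap, the share of all genes with such groups is given only for Dox without LIF in Nanog SunTag cells. Elsewhere non-overlap describes the libraries of a member and was not compared with other genes.

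Of the ATPases, Smarca4 stood at 3837, 6717 and 6574 normalised counts with LIF and at 11693, 10959 and 12214 without LIF in Nanog SunTag cells. Every library without LIF was above every library with LIF, and C1-1 was the lowest. The change was 2.02-fold (log2 1.01 ± 0.18 (SE), adjusted p = 0.0012), and 0.82 on the log2 scale without C1-1 (adjusted p = 7.89e-05). Smarca4 went from 6281, 7726 and 7981 to 10867, 11583, 11157 and 11616 in Nanog/Otx2 SunTag cells, again with no overlap, by 1.51-fold (log2 0.59 ± 0.08 (SE), adjusted p = 1.61e-05). Smarca2, the gene of the alternative ATPase Brm, rose from 58.9, 77.1 and 64.9 to 149, 154 and 242 in Nanog SunTag cells (log2 1.42 ± 0.34 (SE), adjusted p = 0.00664). Under the Nanog/Otx2 guides it rose from 40.9, 46.5 and 92.6 to 116, 99.1, 144 and 116 (log2 1.09 ± 0.30 (SE), adjusted p = 0.00663). Smarca2 groups did not overlap under either guide, but its counts were low, down to 8 estimated reads in 1 of the 35 libraries.

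The ARID1 genes encode the large subunits that mark canonical BAF. Arid1a went from 6413, 7667 and 7271 to 16639, 17794 and 18771 in Nanog SunTag cells, a 2.46-fold rise (log2 1.30 ± 0.12 (SE), adjusted p = 1.71e-05). Under the Nanog/Otx2 guides Arid1a went from 5640.5, 6949 and 7194 to 9683, 11507, 10439 and 11808, a 1.61-fold rise (log2 0.69 ± 0.12 (SE), adjusted p = 0.00027). The ranges of the lines overlapped with LIF, and without LIF every Nanog library was above every Nanog/Otx2 library. Arid1b went from 428, 508 and 392 to 1206, 972 and 954 (log2 1.22 ± 0.17 (SE), adjusted p = 0.000192). The Nanog/Otx2 libraries of Arid1b went from 620.3, 553 and 481 to 1179, 1162, 897 and 856 (log2 0.85 ± 0.16 (SE), adjusted p = 0.000482). Neither ARID1 gene had overlapping groups under either guide.

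Smarcc1 and Smarcc2 encode the paired scaffold proteins on which the complex is assembled. Smarcc1 counted 8467, 5617 and 6717 with LIF and 14548, 19659.8 and 14557 without LIF in Nanog SunTag cells, with no overlap (log2 1.21 ± 0.21 (SE), adjusted p = 0.000881). The Nanog/Otx2 libraries of Smarcc1 counted 8396, 8396 and 6361 with LIF and 8555, 9569.6, 10541 and 10408 without (log2 0.30 ± 0.11 (SE), adjusted p = 0.026). The Nanog/Otx2 groups were close but did not overlap, and the call was lost without library C2ON3-1 of +LIF -Dox (log2 0.19, adjusted p = 0.116), without C2ON3-1 of -LIF -Dox (log2 0.27, adjusted p = 0.0668) or without its C2ON3-2 (log2 0.27, adjusted p = 0.0655). Smarcc2 went from 554, 793 and 773 to 1957, 2002 and 1524 in Nanog SunTag cells (log2 1.35 ± 0.17 (SE), adjusted p = 0.000125). In Nanog/Otx2 SunTag cells it went from 632, 779.9 and 579 to 1438, 1477, 989 and 1022 (log2 0.85 ± 0.17 (SE), adjusted p = 0.000774), and without LIF the C1ON3 libraries lay above the C2ON3 libraries.

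The remaining core subunits differed between the lines. Smarcd1, which links the complex to transcription factors, rose in Nanog/Otx2 SunTag cells from 4150.4, 4199 and 4148 to 6190.3, 6149, 6975 and 6593 (log2 0.60 ± 0.07 (SE), adjusted p = 5.83e-06). In Nanog SunTag cells it was 2662, 5907 and 5898 with LIF and 6519, 6547 and 7192 without (log2 0.47 ± 0.24 (SE), adjusted p = 0.13); the groups did not overlap, C1-1 lay far below the other libraries with LIF, and the log2 change without it was 0.21. With the clone as a block, Smarcd1 passed the test at log2 0.65 (adjusted p = 0.0243). Smarce1, an HMG-box subunit that contacts DNA, rose in Nanog/Otx2 SunTag cells (log2 0.40 ± 0.08 (SE), adjusted p = 0.00114) and had log2 0.38 ± 0.16 (SE) in Nanog SunTag cells (adjusted p = 0.0784; 0.0449 with the clone as a block). Smarcb1, the core subunit that grips the nucleosome, was 2314, 3911 and 3689 with LIF and 2016, 1976 and 2441 without LIF in Nanog SunTag cells, and was called lower (log2 -0.64 ± 0.19 (SE), adjusted p = 0.0184). Its groups overlapped through C1-1, without which the log2 change was -0.81 (adjusted p = 0.000507), and leaving out 1 of 4 other libraries, C2-1 or C2-2 with LIF or C1-1 or C1-2 without, ended the call (log2 -0.51 to -0.59). In Nanog/Otx2 SunTag cells Smarcb1 was 2537, 2378 and 2921 with LIF and 2986, 2729, 3136 and 2848 without (log2 0.14 ± 0.08 (SE), adjusted p = 0.169). Actl6a did not pass the test under either guide (log2 0.03 ± 0.17 (SE) and -0.17 ± 0.12 (SE)). Without library C2ON3-1 of +LIF -Dox, the shallowest of all with 6107512 counts, Actl6a was called lower (log2 -0.30, adjusted p = 0.0297) and Smarcb1 higher (log2 0.22, adjusted p = 0.0303) in Nanog/Otx2 SunTag cells.

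**Figure D2:**
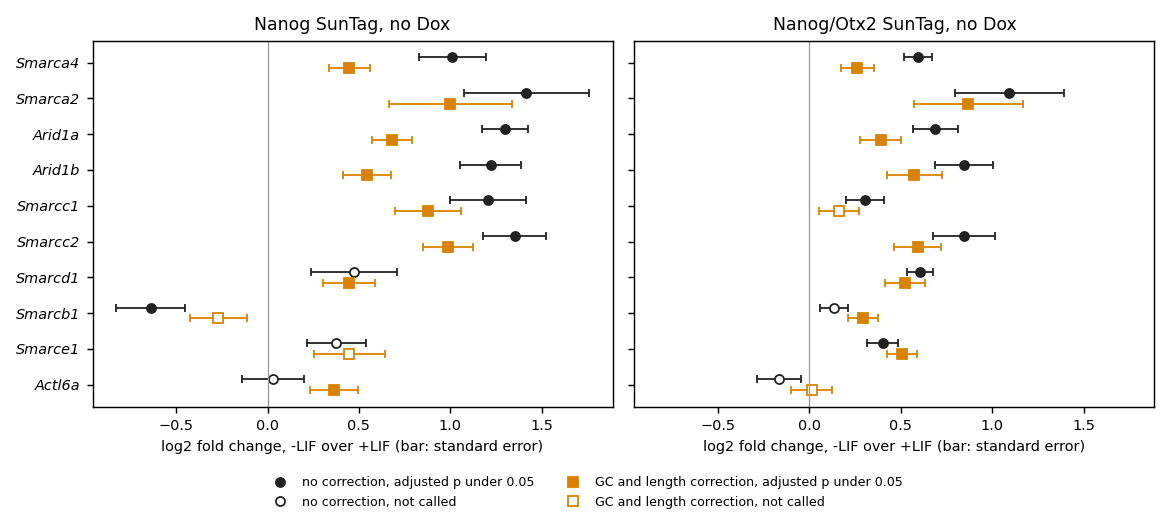
Log2 fold change (horizontal axis, -LIF over +LIF without Dox) of each BAF subunit in Nanog SunTag and Nanog/Otx2 SunTag cells, from the fit as it stands and with GC content and transcript length corrected; bars are standard errors and filled symbols passed the adjusted p of 0.05. The 6 members of the paralog pairs lie right of 0 in both panels, and Smarcb1 lies at -0.64 in the left panel and 0.14 in the right.

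The change on LIF withdrawal moved with transcript length in all genes, and the members differ in length from 1660 bases (Smarcb1) to 11325 bases (Arid1b). In Nanog SunTag cells the median log2 fold change was -0.35 for 6723 genes whose longest coding transcript was under 2500 bases and 0.50 for 2660 genes of 5000 bases or more. The same medians in Nanog/Otx2 SunTag cells were -0.11 and 0.19. A fit that takes out each library's smooth trend with GC content and length, chosen after these trends were seen, is therefore given beside the main one. It lowered the log2 fold change of Smarca4 to 0.45 and 0.26, of Arid1a to 0.68 and 0.39 and of Arid1b to 0.54 and 0.57 in Nanog and Nanog/Otx2 SunTag cells, each still past the threshold. The fall of Smarcb1 in Nanog SunTag cells was no longer called (-0.27, adjusted p = 0.181), nor was the rise of Smarcc1 in Nanog/Otx2 SunTag cells (0.16, adjusted p = 0.239). Smarcd1 (0.45) and Actl6a (0.36) were then called higher in Nanog SunTag cells, and Smarcb1 (0.29) in Nanog/Otx2 SunTag cells. With the correction 8 of 10 members rose and none fell under each guide, against 21.9% higher and 21.4% lower of all genes in Nanog SunTag cells and 25.5% and 24.6% in Nanog/Otx2 SunTag cells. Whether length is the cause of the larger uncorrected changes was not tested.

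**Figure D3:**
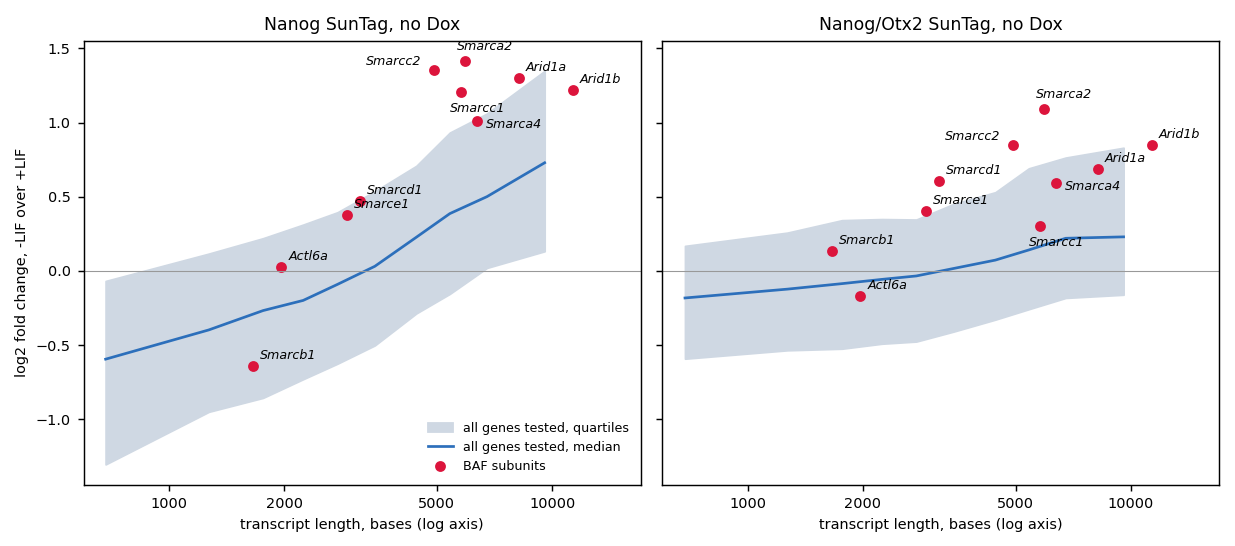
Log2 fold change on LIF withdrawal without Dox (vertical axis) against the length of the longest protein-coding transcript in bases (log axis); the line and band are the median and quartiles of all genes tested in 10 length bins, and red points are the BAF subunits. The median of all genes rises with length from -0.59 to 0.73 in Nanog SunTag cells and from -0.18 to 0.23 in Nanog/Otx2 SunTag cells, and the longest members, Arid1a and Arid1b, lie above it in both panels. The upper quartile of their bin, 8000 bases or more, was 1.35 in Nanog and 0.83 in Nanog/Otx2 SunTag cells. Arid1a was below that quartile in both lines. Arid1b was below it in Nanog and just above it in Nanog/Otx2 SunTag cells.

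With Dox present, LIF withdrawal compares cells that keep Nanog expression. Here 5 members rose and 1 fell in Nanog SunTag cells (17.1% of all genes rose and 15.5% fell) and 7 rose and none fell in Nanog/Otx2 SunTag cells (18.7% and 17.9%). Smarca4 rose from 5011 and 5039 to 8338, 8315 and 8889 in Nanog SunTag cells (log2 0.79 ± 0.21 (SE), adjusted p = 0.0143). It rose in Nanog/Otx2 SunTag cells from 7154, 7432, 6969 and 6894 to 10265, 11066, 10252 and 10806 (log2 0.56 ± 0.07 (SE), adjusted p = 2.4e-05). The Smarca4 groups were again apart in both lines. Arid1a rose by 1.43 and 0.77 on the log2 scale, Arid1b by 0.73 and 0.45, Smarcc1 by 1.30 and 0.51 and Smarcc2 by 0.66 and 0.57. Smarcb1 fell by 0.74 in Nanog SunTag cells (adjusted p = 0.0194), and Smarcd1 (0.39) and Smarce1 (0.28) rose in Nanog/Otx2 SunTag cells. Smarca2 was not called in either line (log2 0.91 ± 0.38 (SE) and 0.31 ± 0.26 (SE)); with the clone as a block it passed in Nanog SunTag cells (0.97, adjusted p = 0.0177), as did Actl6a (0.39, adjusted p = 0.0457). The Nanog +LIF +Dox group holds 2 libraries, and without its C1-1 only 2 members were called, beside 15.5% of all genes.

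With GC content and length corrected, 4 members rose in Nanog SunTag cells in the presence of Dox (Arid1a 0.81, Smarcc1 0.76, Smarcd1 0.48 and Actl6a 0.63) and none fell, beside 13.7% higher and 16.2% lower of all genes. Smarca4 was then at 0.31 (adjusted p = 0.0859) and Arid1b at -0.05. Correction left 6 members called higher in Nanog/Otx2 SunTag cells, Smarca4 among them at 0.34, and none fell, beside 17.5% and 20.3%; Arid1b was no longer called (0.21, adjusted p = 0.247).

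Dox without LIF asks what induced Nanog does to the subunits when LIF is absent. In Nanog SunTag cells 0 of 10 members were called by edgeR, where 5.14% of all genes were. Unadjusted p-values under 0.05 were found for 5 members, beside 18.5% of all genes, and DESeq2 called 2 lower, Arid1b and Smarcc2, beside 4.04% of all genes. Of the 10 estimates 9 were negative, with a median of -0.32 against 0.00 over all genes. The change moved with GC content in all genes, from a median log2 of 0.10 in the lowest quartile to -0.18 in the highest. The members run from 45.4% GC (Smarce1) to 56.3% (Smarcd1). The part of this trend in the member estimates was not tested. Smarca4 was 11693, 10959 and 12214 without Dox and 8338, 8315 and 8889 with Dox, with no overlap between the groups (log2 -0.42 ± 0.18 (SE), adjusted p = 0.237). The groups of Arid1a, Arid1b, Smarcc2, Smarcd1 and Smarce1 did not overlap either, with log2 differences of -0.28, -0.47, -0.51, -0.36 and -0.37; of all genes tested, 18.6% had every library with Dox below every library without. Library C1-1 with LIF enters this test through the shared spread, and without it 4 members were called lower: Smarca4 (log2 -0.41, adjusted p = 0.0131), Smarcc2 (-0.50), Smarcd1 (-0.35) and Smarce1 (-0.36), where 3.92% of all genes were called lower.

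In Nanog/Otx2 SunTag cells without LIF, Smarce1 fell with Dox from 4624, 4049.8, 4675 and 4148 to 3344, 2842, 3595 and 3412 (log2 -0.37 ± 0.08 (SE), adjusted p = 0.0044), the 1 member called where 17.3% of all genes were; Smarcd1 was called too without C1ON3-1 of -LIF -Dox, or C2ON3-1 or C2ON3-2 of -LIF +Dox (log2 -0.21 to -0.22). With clone and number as a block, 33.4% of all genes and 4 members were called, all lower: Smarce1, Arid1b (-0.35, adjusted p = 0.00119), Smarcc2 (-0.25, adjusted p = 0.024) and Smarcd1 (-0.19, adjusted p = 0.00924). The title of library C2ON3-1 of +LIF -Dox has the number 1 and its column name the number 2; with it in the other block, 34.6% of all genes and 4 members were called. Smarca4 was 10867, 11583, 11157 and 11616 without Dox and 10265, 11066, 10252 and 10806 with Dox, and the groups overlapped (log2 -0.06 ± 0.07 (SE)). The Dox effect without LIF did not pass a test of the difference between the guides for any of the 10 members by edgeR or DESeq2. By edgeR 0.0308% of all genes did, and 0 members had an unadjusted p under 0.05. For Smarca4 that difference was 0.32 ± 0.18 (SE) (Nanog/Otx2 minus Nanog, edgeR adjusted p = 0.896). It was 0.19 ± 0.12 (SE) with GC content corrected and 0.07 ± 0.13 (SE) with GC content and length corrected.

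With LIF present, 0 of 10 members changed with Dox in Nanog SunTag cells (edgeR; 0.563% of all genes); Arid1a alone had an unadjusted p under 0.05, DESeq2 called 0, and without C1-1 of +LIF -Dox Smarcd1 was called lower (log2 -0.59, adjusted p = 0.0416), as were 0.374% of all genes. In Nanog/Otx2 SunTag cells 2 fell, Smarcc1 (log2 -0.33 ± 0.10 (SE), adjusted p = 0.0364) and Smarce1 (log2 -0.25 ± 0.08 (SE), adjusted p = 0.0436), beside 22.9% of all genes; leaving out C1ON3-1 or C1ON3-2 of +LIF -Dox, or C2ON3-1 or C2ON3-2 of +LIF +Dox, left 0 calls, and leaving out C1ON3-1 or C1ON3-2 of +LIF +Dox, C2ON3-2 of -LIF -Dox, or C1ON3-1 or C2ON3-2 of -LIF +Dox left 1. A fit without the filter on low counts, or with these groups alone, also gave 0 calls. Smarca4 had log2 -0.19 ± 0.20 (SE) and -0.03 ± 0.08 (SE) in the respective lines. The interaction of LIF and Dox was called for none of the members in either line by edgeR or DESeq2 (1.93% of all genes in Nanog and 9.7% in Nanog/Otx2 SunTag cells by edgeR), with an unadjusted p under 0.05 for 2 members and 1 member. With the block, 21.8% of genes passed in Nanog/Otx2 SunTag cells, among them Arid1b (-0.47, adjusted p = 0.00463) and Smarcc2 (-0.35, adjusted p = 0.0471); with C2ON3-1 of +LIF -Dox in the other block, 21.3% of genes and 2 members passed. The interaction of Smarca4 was -0.23 ± 0.27 (SE) in Nanog and -0.03 ± 0.10 (SE) in Nanog/Otx2 SunTag cells. These comparisons share libraries with those above and are not independent of them.

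The effect of LIF withdrawal without Dox differed between the guides for 3 members, where 2.49% of 16210 genes did. It was smaller in Nanog/Otx2 than in Nanog SunTag cells for Arid1a (difference -0.61 ± 0.17 (SE), adjusted p = 0.0493) and Smarcc1 (-0.91 ± 0.22 (SE), adjusted p = 0.0292). For Smarcb1 it was -0.64 in Nanog and 0.14 in Nanog/Otx2 SunTag cells (difference 0.78 ± 0.19 (SE), adjusted p = 0.0304). With GC content and length corrected none of the 3 was called (-0.29, -0.70 and 0.57; adjusted p = 0.347, 0.0706 and 0.0684), beside 2.57% of all genes. Leaving out C2-1 or C2-2 of Nanog SunTag +LIF -Dox, C1-2 of Nanog SunTag -LIF -Dox, C1ON3-2 of Nanog/Otx2 SunTag +LIF -Dox or C1ON3-1 of Nanog/Otx2 SunTag -LIF -Dox left 0 members called, and leaving out C1-1 of Nanog SunTag -LIF -Dox, C1ON3-1 of Nanog/Otx2 SunTag +LIF -Dox or C2ON3-1 of Nanog/Otx2 SunTag -LIF -Dox left 1.

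A ratio of paralogs within a library needs no size factor and asks whether the composition of the pair shifts. It still holds any trend of a library with GC content or length where the paralogs differ in these. GC content was 54.8% in Smarcc2 and 47.2% in Smarcc1, and 51.8% in Smarca2 and 56.0% in Smarca4. Arid1b has 11325 bases and Arid1a 8190. The ratios are given uncorrected, and the part of such trends in them was not tested. LIF withdrawal moved the log2 ratio of Smarca2 to Smarca4 by 0.15 over the 4 strata of guide and Dox (two-sided exact permutation test within strata, 490000 arrangements, p = 0.338, adjusted over 6 tests 0.689). The ratio of Arid1b to Arid1a moved by -0.23 (exact permutation p = 0.079, adjusted 0.476) and that of Smarcc2 to Smarcc1 by 0.02 (exact permutation p = 0.899). Against Dox the differences were 0.15, 0.06 and 0.10 for the same pairs. None of the 6 tests passed, but these are means over strata that differed in sign. Without Dox, LIF withdrawal moved Smarca2 to Smarca4 by 0.34 in Nanog and 0.44 in Nanog/Otx2 SunTag cells, Arid1b to Arid1a by -0.08 and 0.16, and Smarcc2 to Smarcc1 by 0.14 and 0.53. With Dox the same ratios moved by 0.05 and -0.22, by -0.70 and -0.31, and by -0.65 and 0.05. Dox moved Smarcc2 to Smarcc1 by 0.48 and 0.35 with LIF and by -0.31 and -0.13 without, and Arid1b to Arid1a by 0.44 and 0.24 with LIF and by -0.18 and -0.24 without. For Smarca2 to Smarca4 the Dox differences were 0.40 and 0.37 with LIF and 0.11 and -0.29 without. The strata were not tested one by one.

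**Figure D4:**
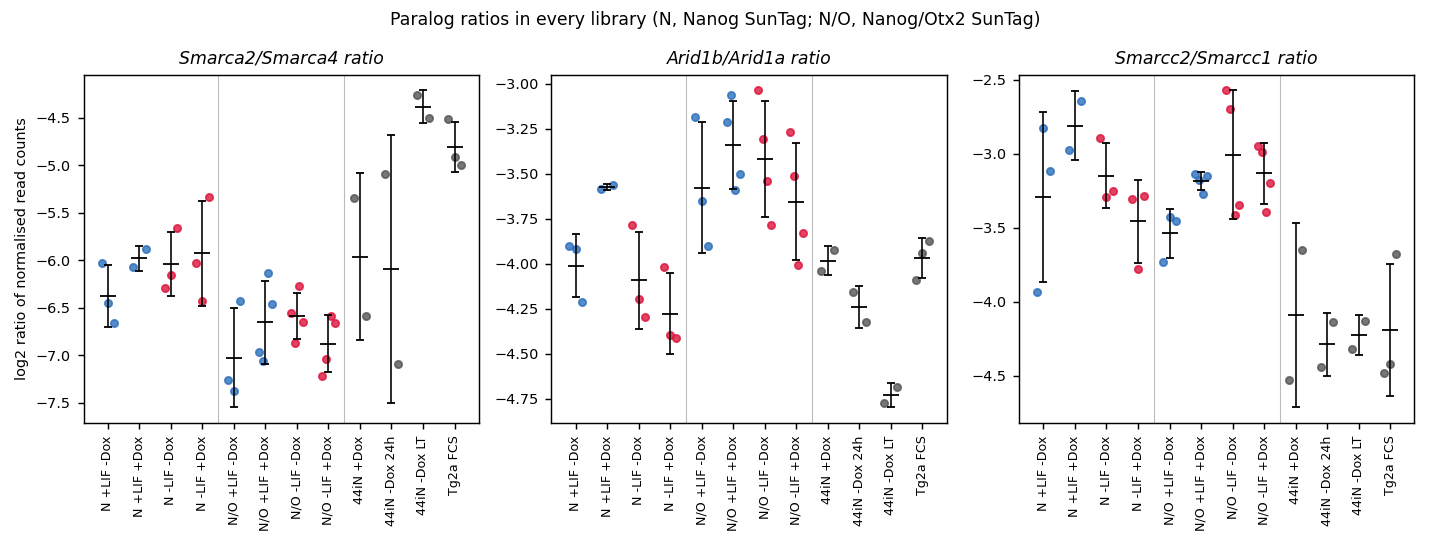
Log2 ratio of the normalised read counts of 2 paralogs (vertical axis) in each of the 35 libraries, for Smarca2 to Smarca4, Arid1b to Arid1a and Smarcc2 to Smarcc1; points are libraries and black bars the mean ± SD of a group, N is Nanog SunTag and N/O is Nanog/Otx2 SunTag. All ratios lie below 0, so that Smarca4, Arid1a and Smarcc1 were the higher of each pair in every library. Not all SunTag groups overlap. Arid1b to Arid1a was -3.58 to -3.56 in N +LIF +Dox and -4.21 to -3.90 in N +LIF -Dox.

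In 44iN cells, Dox supplies Nanog from the transgene. Smarca4 was 2494 and 5219 with Dox and 2208 and 3215 24 h after its removal (log2 0.61 ± 0.42 (SE), adjusted p = 0.784), so that the libraries of a group differed as much as the groups. Smarca2 was 61.4 and 54.4 with Dox and 64.8 and 23.7 after its removal. Arid1a was 9349.5 and 10216 with Dox and 11000.5 and 10728 after its removal. None of the 10 members was called, and neither was any of 14376 genes (0%) by edgeR, among them Nanog itself (log2 4.56 ± 0.30 (SE), adjusted p = 0.0902); 1023 genes had an unadjusted p under 0.05 and DESeq2 called 141. Without library 1 of 44iN +Dox, Smarca4 was called higher (log2 1.04, adjusted p = 0.000471), as were 13.2% of all genes. The change in these libraries moved with GC content, from a median log2 of -0.26 in the quartile of genes lowest in GC to 0.54 in the highest, and Smarca4, at 56.0% GC, had 0.13 with the correction.

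Long-term Nanog-null 44iN cells were set against Tg2a FCS cells. Smarca4 was 2806 and 2893 in the Nanog-null and 2468, 2556 and 4243 in the parental libraries (log2 -0.19 ± 0.23 (SE), adjusted p = 0.641). Smarca2 was 146 and 127 against 108, 84.5 and 133, which overlap, and Arid1b 366 and 411 against 490.2, 504 and 591, which do not (log2 -0.52 ± 0.20 (SE), adjusted p = 0.135). None of the 10 members was called (by edgeR; Arid1b alone had an unadjusted p under 0.05 and DESeq2 called 0), beside 8.61% of 14937 genes; Nanog was lower by 6.37 on the log2 scale (adjusted p = 1.02e-05). With GC content and length corrected Arid1a was higher in the Nanog-null cells by 0.54 (adjusted p = 0.015), beside 9.94% of all genes. With GC content alone corrected Arid1a was not called (0.31, adjusted p = 0.0936) and Arid1b was lower (-0.46, adjusted p = 0.0456), beside 11.9% of all genes.

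The other SWI/SNF subunits moved in both directions on LIF withdrawal without Dox. Of 20 listed genes 19 were tested. In Nanog SunTag cells 7 rose and 2 fell, beside 20.2% and 21.3% of all genes. In Nanog/Otx2 SunTag cells 9 rose and 3 fell, beside 24.6% and 25.2%. The median log2 fold change was 0.20 and 0.20 in these lines. Bcl11a, a zinc finger subunit known from neural and blood cells, rose by 4.74 ± 0.45 (SE; adjusted p = 1.42e-05) in Nanog SunTag cells, from 50.2 ± 30.2 to 1283 ± 277 normalised counts, and by 3.41 ± 0.32 (SE; adjusted p = 7.82e-07) in Nanog/Otx2 SunTag cells. Its paralog Bcl11b rose by 2.08 ± 0.48 (SE; adjusted p = 0.00514) and 3.09 ± 0.31 (SE; adjusted p = 1.14e-06), and Arid2, which defines the PBAF form, by 2.16 ± 0.22 (SE; adjusted p = 2.69e-05) and 1.59 ± 0.08 (SE; adjusted p = 1.89e-09). Smarcd3, the paralog of Smarcd1 known from heart and muscle, fell, with log2 -5.06 ± 0.59 (SE; adjusted p = 6.78e-05) and -3.36 ± 0.33 (SE; adjusted p = 1.03e-06), from 622 ± 380.1 to 18.7 ± 2.80 in Nanog SunTag cells. BC032203, the older symbol of Bicral, a subunit of the non-canonical form, changed by -1.32 ± 0.15 (SE; adjusted p = 6.06e-05) and -1.62 ± 0.09 (SE; adjusted p = 5.81e-09). The 5 named subunits kept direction and call with GC content and length corrected.

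Several of these were also called with Dox in the absence of LIF, a comparison that shares its -LIF -Dox libraries with the one above. Arid2 had log2 -0.94 (adjusted p = 0.0262) in Nanog and -0.79 (adjusted p = 8.09e-06) in Nanog/Otx2 SunTag cells, and BC032203 0.75 (adjusted p = 0.0137) and 0.47 (adjusted p = 0.00197). Bcl11a had -1.02 (adjusted p = 0.142) and -1.41 (adjusted p = 0.00178), so that it passed in Nanog/Otx2 SunTag cells alone; its difference between the guides did not pass (-0.43, adjusted p = 0.924). In long-term Nanog-null cells Smarcd3 was lower than in Tg2a FCS (-3.46, adjusted p = 0.00616), and so was BC032203 (-0.74, adjusted p = 0.0293).

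**Figure D5:**
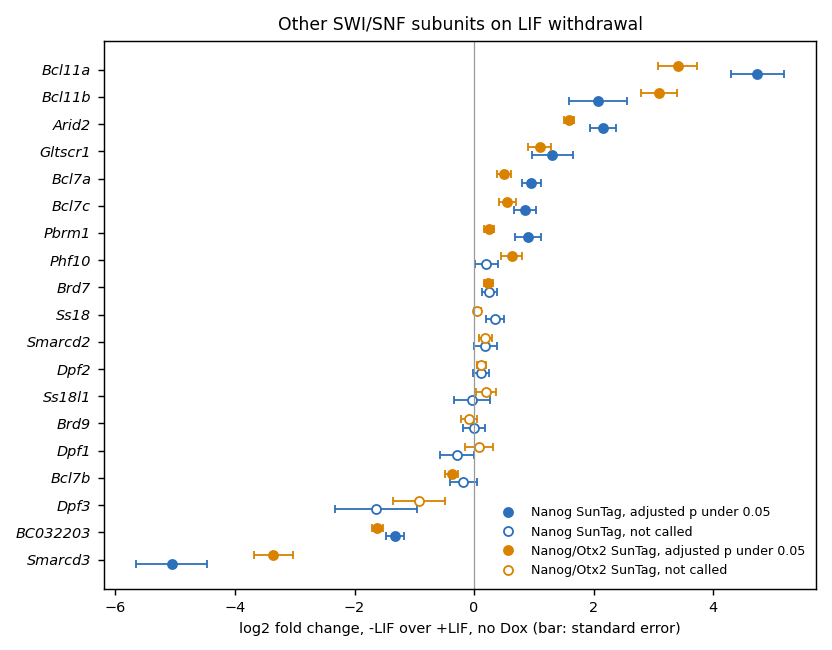
Log2 fold change on LIF withdrawal without Dox (horizontal axis) of the SWI/SNF subunits outside the 10 members, in Nanog SunTag and Nanog/Otx2 SunTag cells; bars are standard errors and filled points passed the adjusted p of 0.05. Bcl11a lies farthest to the right (4.74 and 3.41) and Smarcd3 farthest to the left (-5.06 and -3.36).

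Remodellers of the ISWI, CHD and INO80 families were listed as a comparison (25 genes, 26 rows because Srcap has 2 identifiers). On LIF withdrawal without Dox 16 rows rose and 1 fell in Nanog SunTag cells, beside 20.2% and 21.3% of all genes. In Nanog/Otx2 SunTag cells 12 rose and 3 fell, beside 24.6% and 25.2%. The median log2 fold change was 0.66 and 0.24 in these lines. Chd3, a NuRD ATPase, rose by 2.18 ± 0.25 (SE; adjusted p = 6.54e-05) and 2.61 ± 0.32 (SE; adjusted p = 1.02e-05), Chd7, an enhancer-bound remodeller, by 2.01 ± 0.16 (SE; adjusted p = 6.47e-06) and 1.29 ± 0.09 (SE; adjusted p = 2.73e-08), and Bptf, the large subunit of NURF, by 1.77 ± 0.15 (SE; adjusted p = 6.73e-06) and 0.80 ± 0.09 (SE; adjusted p = 3.31e-06). Ino80 was lower, with -0.57 ± 0.18 (SE; adjusted p = 0.0277) and -1.09 ± 0.17 (SE; adjusted p = 8.87e-05). A majority of rows in this list, as of the BAF members, was thus called higher in Nanog SunTag cells, without GC content and length corrected. The change moved with transcript length in all genes, and the part of length in these calls was not tested. No test of BAF members against other remodellers was made.

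Over the 12 group means of log2(normalised count + 1), the genes whose pattern was most like that of Smarca4 were Gatad2a (Pearson r = 0.992), Mum1 (0.992) and Neurl4 (0.991) among 11290 genes compared. Among the other members Smarcd1 was most like Smarca4 (0.966), followed by Arid1b (0.748) and Smarcc2 (0.726), while Smarcc1 was at -0.15. In GC content Smarca4 was at 56.0%, Gatad2a at 55.8%, Mum1 at 54.5%, Neurl4 at 57.3% and Smarcd1 at 56.3%. Smarcc1 was at 47.2% and Actl6a (r = 0.17) at 47.4%. Arid1a (r = 0.24) was at 53.2% and Smarce1 (r = 0.51) at 45.4%, which departs from that order. The part of GC content in these likenesses was not tested. For Smarca2 the most alike were Nrbp2 (0.928), Rdh11 (0.914) and Arhgef5 (0.911), and of the members Smarcc2 (0.676). These are descriptions over 12 means that share libraries, line and sequencing set.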

How the data were processed

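RNA-seq of mouse ES cells was analysed in 35 libraries of 12 groups; 3 further libraries of the labels (Tg2a in 2i medium) were not analysed here. The authors aligned reads to mm9 with STAR and estimated counts per gene with RSEM (base calling with CASAVA 1.8 per the labels); the deposited estimated counts are whole numbers, summing to 6107512 to 92244655 per library, which sets their precision. The deposited signal columns are normalised counts, which the authors made by dividing by DESeq2 size factors; they were used for levels only.

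Differences were tested on the estimated counts with edgeR 4.0.16 (R 4.3.3; TMM, quasi-likelihood F-test, Benjamini-Hochberg adjustment over all genes tested) among genes whose normalised count reached 10 throughout 1 condition or more, in the model LIF + Dox + LIF:Dox for each SunTag line. Alternatives were DESeq2 1.42.0, its size factors, no filter, only the groups compared, each library left out, and a replicate block; corrections for GC content and length (each library's natural spline trend, 5 degrees of freedom, as an offset; lengths from the mm9 annotation, which matched 37205 of 37620 rows) were added after seeing the data. Paralog ratios were tested with SciPy 1.17.1. Scripts were tested on simulated data. Groups came from the labels. Replicates differed beyond sampling noise, so that none was counted as a duplicate.

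The labels give clones and numbers. In Nanog/Otx2 SunTag cells, libraries of the same clone and number deviated together from their group means (every pair r of at least 0.144, mean 0.317; other pairs mean -0.11). Library C2ON3-1 of +LIF -Dox has the number 1 in its title, used here, and 2 in its column name. Its r with the C2ON3 libraries of number 1 was 0.144 to 0.254 and with those of number 2 0.128 to 0.374, so that its number is not settled and the fit was repeated with the other. In Nanog SunTag cells the block was the clone, which is the same cell line across conditions (mean r 0.167; others -0.16).

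The 10 members and all gene lists were chosen with earlier results of these data known. Named genes were all members and, for each list, the 3 called genes with the largest change in each direction under both guides whose mean in the higher group was 100.0 normalised counts or more, and the 3 genes most alike to Smarca4 and to Smarca2. Motifs were searched in RefSeq windows of GRCm38.p6.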

Additional observations from a re-analysis of the deposited data

Results flagged for a closer look

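The change on LIF withdrawal without Dox differed between Nanog/Otx2 and Nanog SunTag cells, by a test of the difference itself, for 3 subunits. The difference in log2 fold change (Nanog/Otx2 minus Nanog) was -0.61 for Arid1a, -0.91 for Smarcc1 and 0.78 for Smarcb1. The guides coincide with the sets of libraries and cannot be told apart from them, and with GC content and length corrected none of the 3 was called (-0.29, -0.70 and 0.57). With GC content alone corrected all 3 were called (-0.65, -0.89 and 0.75), and so was Smarca4 (-0.48, adjusted p = 0.0231 by edgeR). With the block, GC content and length together, Smarcb1 was called (0.47, adjusted p = 0.0292 by edgeR). No library stood apart from its group in 30 tests of a member in a group of 4 (Dixon's test). Smaller groups were not tested in this way. Among them are Nanog SunTag +LIF -Dox, Nanog SunTag -LIF -Dox and Nanog/Otx2 SunTag +LIF -Dox of this comparison. The test therefore does not bear on library C1-1 of Nanog SunTag +LIF -Dox.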

How the results depend on the processing

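Of the 10 members, the number called on LIF withdrawal, with or without Dox, stayed within 1.5 times in both lines under every alternative that kept all libraries. Leaving out 1 library each gave 6 to 7 calls without Dox and 2 to 8 with Dox in Nanog SunTag cells, and 7 to 9 and 6 to 7 in Nanog/Otx2 SunTag cells. For Dox without LIF in Nanog SunTag cells, DESeq2 called 2 and a fit of only the groups compared 4 (0 to 4 with 1 library left out). In Nanog/Otx2 SunTag cells DESeq2, its size factors and the GC correction each called 2 and the GC and length correction 3 (1 to 2 with 1 library left out). For Dox with LIF the range with 1 library left out was 0 to 1 and 0 to 2, and no filter, the GC correction and only the groups compared each left 0 in Nanog/Otx2 SunTag cells. The difference of the LIF effect between guides had 1 call with no filter, 0 with the GC and length correction and 0 with only the groups compared (0 to 4 with 1 library left out). For 44iN cells the range was 0 to 1, and for long-term cells against Tg2a the GC correction called 1, Arid1b, and the GC and length correction 1, Arid1a. Where this left 1 library in a group, that library was assumed to vary like the other groups. The cause of these shifts was not tested. Shares of all genes called are not given for each alternative, so that the counts show only how the calls depend on the processing.

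With the replicate block, Dox without LIF in Nanog/Otx2 SunTag cells had 4 calls, beside 33.4% of all genes. It had 5 with the GC correction added and 7 with GC and length. In Nanog SunTag cells 3 and 2 were called with these corrections. The shares of all genes called in the corrected fits are not given, so that these counts show only how the calls depend on the processing. With library C2ON3-1 of +LIF -Dox put in the block of its column name (added after seeing the data) the counts were 4 for Dox without LIF and 2 for the interaction. The blocked fits with GC, and with GC and length, called 1 each for Dox with LIF in Nanog SunTag cells; the interaction in Nanog/Otx2 SunTag cells had 2 calls with the block, 3 with GC and 1 with GC and length; and the difference between guides had 5 and 1. In 44iN cells the numbers are shared without a stated pairing. With 2 libraries in each group, both pairs have the same r by construction (0.56), and crossed numbers have its negative (-0.56). This r is thus 1 value and does not settle the pairing. In these cells the block called 1 (Smarca4, 0.53), 1 with GC and 2 with GC and length. For long-term 44iN cells against Tg2a, which share only numbers (2 pairs, r = 0.19 and 0.079), the block, added after seeing the data, called 1 member, Arid1b (1286 genes in all without the block, 4840.0 with it) and put Smarca4 at 0.090. The block changed no other count by more than 1.5 times.

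The following signs turned. Actl6a on LIF withdrawal without Dox was -0.048 with the block in Nanog SunTag cells (-0.082 to 0.24 with 1 library left out), and 0.013 and 0.065 (with the block) with GC and length corrected in Nanog/Otx2 SunTag cells. Arid1b with Dox in Nanog SunTag cells, called at 0.73 without a correction, was -0.048 and, with the block, -0.064 under that correction, and Smarce1 was -0.27 to 0.0072 with 1 library left out. The Smarca4 interaction in Nanog/Otx2 SunTag cells was 0.081 with GC and length corrected, 0.0043 with the block and GC and 0.12 with the block, GC and length (-0.096 to 0.066 with 1 library left out). With 1 library left out Smarca4 was -0.12 to 0.039 for Dox with LIF in Nanog/Otx2 SunTag cells, -0.069 (without +Dox library 2) to 1.04 in 44iN cells and -0.35 to 0.092 for long-term cells against Tg2a, where it was 0.0025 with the GC and 0.21 with the GC and length correction. The log2 ratio of Smarcc2 to Smarcc1 against LIF was -0.060 to 0.079. Depth limits Smarca2 most, whose lowest library holds 8 estimated reads.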
